A study of Mus musculus with 26 samples.

Results

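The hedgehog pathway was followed through 9 of its genes, Shh, Boc, Ptch1, Hhip, Smo, Sufu, Gli1, Gli2 and Gli3, among 19505 genes measured on 26 arrays. The members were listed by name, and each was represented by 1 transcript cluster of the array. The arrays came from 13 mouse cultures of neural stem and progenitor cells, on a C57BL/6 background, taken from the telencephalon at postnatal day 0 and kept as 1 culture per animal. The 4 groups were SOX2 KO cultures (numbers 7 to 13) given 100 nM dexamethasone (Dex, a synthetic glucocorticoid) for 4 h, the same 7 SOX2 KO cultures given the ethanol vehicle, WT cultures (numbers 1 to 6) given Dex, and the same 6 WT cultures given vehicle. All were at passage 3 in medium with EGF and FGF-1, of both sexes. How the SOX2 KO was made, and in which cells, is not given in the sources used here.

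In the hedgehog pathway a secreted ligand such as SHH binds the receptor PTCH1, which lifts the hold of PTCH1 on the membrane protein SMO. SMO signals through the primary cilium, SUFU releases the GLI transcription factors, and GLI target genes, among them Gli1, Ptch1 and Hhip, are transcribed. In the telencephalon the pathway is known for ventral patterning and for the upkeep of neural stem cells. SOX2 is a transcription factor of those cells and is known to act on Shh there.

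Sox2 checked the genotype labels. It averaged 4.65 ± 0.51 log2 units in SOX2 KO vehicle arrays (SD, n = 7) and 13.40 ± 0.70 in WT vehicle arrays (SD, n = 6). With Dex it averaged 4.79 ± 0.89 in SOX2 KO and 12.96 ± 0.56 in WT, and the genotypes did not overlap. Of 10 listed markers of neural stem and progenitor cells, 8 lay above the array median on all 26 arrays (Nes, Vim, Sox9, Fabp7, Pax6, Msi1, Slc1a3 and Hes5). Of the markers of other cells, 4 of 5 microglial, 3 of 4 endothelial and 4 of 5 fibroblast and mural ones were below the array median on all 26 arrays. The astrocyte markers Aqp4, Aldh1l1 and Gja1 and the neuronal genes Snap25 and Tubb3 were above the median on every array. The neuronal markers Rbfox3 and Stmn2, of 6 listed, were below it on every array. Of 3 measured oligodendrocyte lineage markers and 2 ependymal ones, Mog and Dnah5 were below it on every array. Another of the oligodendrocyte lineage markers was above it on every WT array. The mean over these 3 ran from 5.25 to 8.46 in SOX2 KO vehicle arrays and from 5.40 to 8.94 in WT vehicle arrays. The part of such cells in the results below was not tested. Apart from Sox2, the marker that passed between genotypes on culture means was the neuronal gene Syt1. The mean over the 5 astrocyte markers ran from 9.54 to 11.48 in SOX2 KO vehicle arrays, against 9.05 to 11.25 in WT vehicle arrays, and their part in the results below was not tested. The cultures were divided into 3 array clusters by overall profile, holding cultures 1, 2, 3, 7 and 8, cultures 4, 10 and 12, and cultures 5, 6, 9, 11 and 13. The number 3 was set beforehand, and the clusters were formed from these same values after group means were removed. A pass of any gene with the cluster as a covariate, as given below, is therefore no separate support. The labels do not name these clusters, and what they stand for was not tested.

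The 2 arrays of WT culture 4 went against their treatment labels. Fkbp5 and Per1, genes that glucocorticoids are known to induce, were higher with Dex in 7 of 7 SOX2 KO cultures, Fkbp5 by 1.79 to 2.83 log2 units. In WT cultures other than number 4, Fkbp5 was higher by 1.27 to 1.87. In culture 4 the array labelled Dex lay below the array labelled vehicle, with a difference of -2.03 for Fkbp5 and -2.74 for Per1. The Dex results are therefore given with and without culture 4. Genotype was also tested on the mean of each culture's 2 arrays, a value that does not depend on which array is which.

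For orientation, the promoter of Gli2, the member with the largest genotype difference, and that of Prkacb, a further pathway gene that passed the test, are shown. Both run from 250 bases before to 50 after the start of transcription, as RefSeq places it on GRCm38.p6. The Gli2 window is chr1:119053570-119053869 on the minus strand. Of the 3 Prkacb windows in the table, the one shown is chr3:146781367-146781666 on the minus strand. Capitals mark the letters CATTGT, a core bound by SOX factors, and AGAACA, 1 arm of the glucocorticoid response element.
Gli2: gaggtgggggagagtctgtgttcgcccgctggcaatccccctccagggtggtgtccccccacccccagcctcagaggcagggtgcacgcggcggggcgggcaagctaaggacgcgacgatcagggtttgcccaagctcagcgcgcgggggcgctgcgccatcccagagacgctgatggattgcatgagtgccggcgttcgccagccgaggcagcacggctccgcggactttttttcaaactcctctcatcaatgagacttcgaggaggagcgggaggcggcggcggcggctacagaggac
Prkacb: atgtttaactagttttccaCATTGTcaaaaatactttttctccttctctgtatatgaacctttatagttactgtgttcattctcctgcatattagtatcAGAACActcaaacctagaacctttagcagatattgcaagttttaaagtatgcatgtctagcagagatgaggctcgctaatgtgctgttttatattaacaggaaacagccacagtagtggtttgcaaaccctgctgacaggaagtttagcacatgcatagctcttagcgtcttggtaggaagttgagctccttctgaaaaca
The Gli2 window held none of the motifs searched on both strands, which were GACCACCCA for GLI factors, CATTGT and AGAACA. The Prkacb window held CATTGT from base 20 and AGAACA from base 100, while the other 2 Prkacb windows held neither. Among all 32851 promoters of the table, 0.253% held the GLI letters, 12.6% the SOX letters and 19% the AGAACA letters. Of the 6 members with a promoter in the table (Gli2, Ptch1, Smo, Sufu, Hhip and Gli3), 0 held the first, 0 the second and 1 the third, Sufu from base 77. A match is a description of the letters and no evidence of binding.

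None of the 9 members passed an adjusted p of 0.05 in any of the 6 comparisons made with limma over all 19505 genes. The background was 0.559% of genes passing for SOX2 KO against WT in vehicle, 0.564% for SOX2 KO against WT in Dex and 0.733% for the same comparison on culture means. It was 0.0513% for Dex against vehicle in SOX2 KO, 0% in WT and 0% for the difference between these Dex effects. At an unadjusted p under 0.05 these comparisons held 1009, 1475, 1248, 553, 188 and 140 genes in the same order. The last 3 counts, for Dex, are from a fit that does not use the pairing of a culture's 2 arrays. With culture as a block they were 1984, 755 and 688, and no member passed there either. Gli2 was the member nearest to the threshold, at 0.463 times the WT level in SOX2 KO cultures. In bulk RNA, fewer cells expressing a gene and less RNA per cell cannot be told apart.

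**Figure D1:**
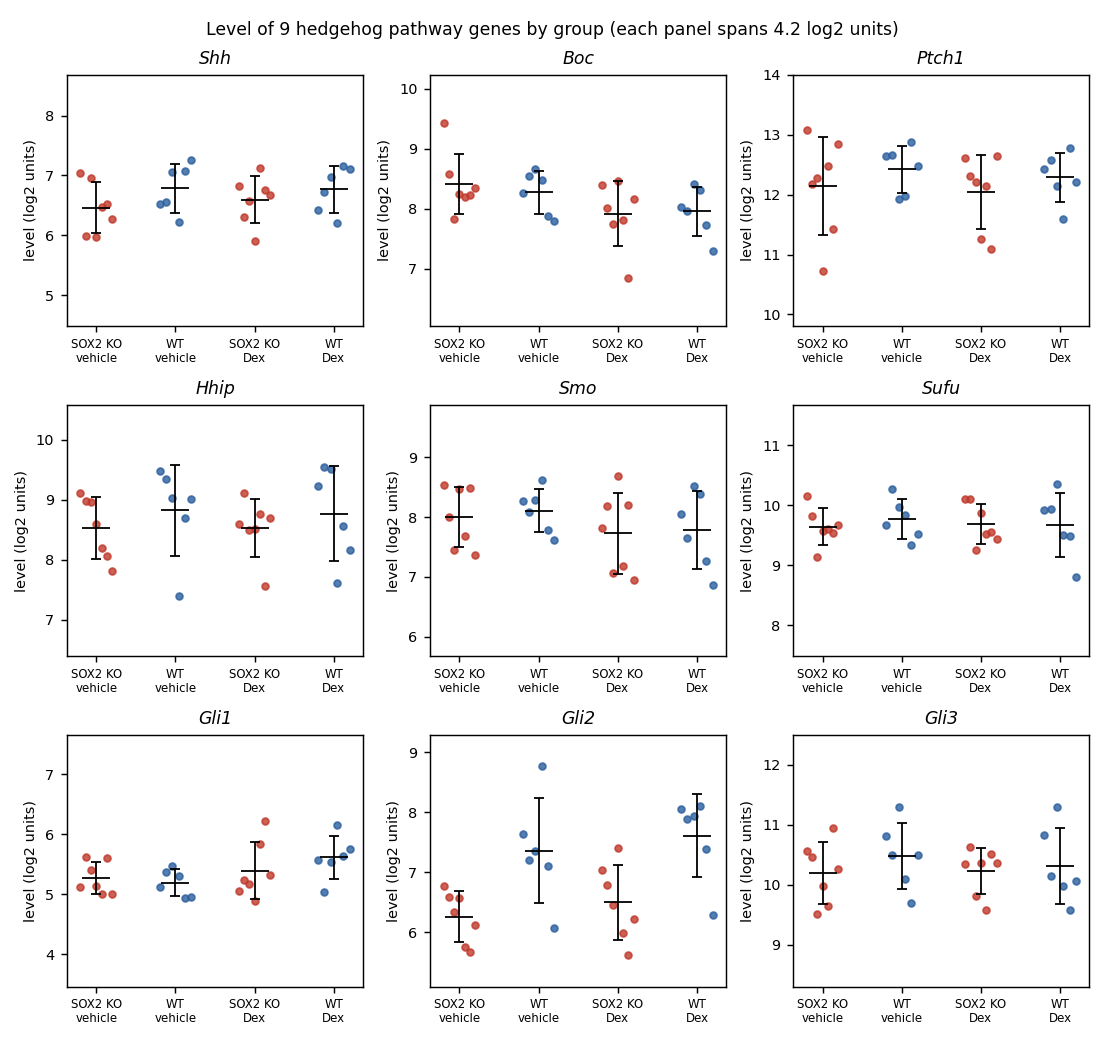
Level of each of the 9 hedgehog genes in log2 units on the y axis, by group on the x axis, with 1 point per array and bars at the mean ± SD (n = 7 SOX2 KO and 6 WT in each treatment). Each panel spans the same number of log2 units. The groups overlap in every panel, and Gli2 shows the widest gap between SOX2 KO and WT.

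The members differed in how they sat within the arrays. Boc, Ptch1, Hhip, Smo, Sufu and Gli3 lay above the array median on 26 of 26 arrays. Gli2 did so on 12 arrays and Shh on 9, while Gli1 lay below it on every array. Probes differ in brightness, so these ranks order no transcripts by amount, and no background values were used here to tell whether Gli1 or Shh was above background. Across all arrays Gli2 varied over the widest span, 3.16 log2 units (5.61 to 8.77), followed by Boc (2.58) and Ptch1 (2.35). Gli1 (1.34) and Shh (1.35) varied over the narrowest. For each of the 9 members, every step between neighbours in the order of the 4 group means was smaller than the larger of their SDs. The largest was in Gli2, where the mean of SOX2 KO with Dex lay 0.862 below that of WT with vehicle.

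Shh, the ligand, did not differ detectably between the genotypes. Its level in SOX2 KO vehicle arrays had a lowest, median and highest value of 5.98, 6.47 and 7.04 log2 units, against 6.23, 6.805 and 7.26 in WT vehicle arrays. The ranges overlapped over most of their length. The difference was -0.32 ± 0.23 (SE, 95% interval -0.79 to 0.15) in vehicle and -0.17 ± 0.23 (-0.64 to 0.30) in Dex. On culture means it was -0.25 ± 0.21 (-0.68 to 0.19, limma adjusted p = 1.00). Within the 3 array clusters it was -0.17, 0.08 and -0.47, so its sign was not shared. The interval leaves room for a fall of Shh to 0.623 of the WT level and for a rise to 1.14 times it.

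At the membrane, Boc, a co-receptor that binds the ligand, ran from 7.83 through a median of 8.24 to 9.43 in SOX2 KO vehicle arrays, against 7.79, 8.37 and 8.67 in WT vehicle arrays. Its difference on culture means was 0.05 ± 0.22 (-0.42 to 0.52). Ptch1, the receptor and itself a target of the pathway, ran from 10.73 through 12.27 to 13.08 in SOX2 KO vehicle arrays, against 11.93, 12.56 and 12.88 in WT vehicle arrays. The SOX2 KO arrays enclosed the WT arrays, and the lowest values came from cultures 10 and 12 of SOX2 KO, at 10.73 and 11.42. Its difference on culture means was -0.27 ± 0.29 (-0.87 to 0.34). Hhip, a decoy receptor that binds hedgehog ligands and a further target, ran from 7.81 through 8.59 to 9.12 in SOX2 KO vehicle arrays, against 7.39, 9.025 and 9.49 in WT vehicle arrays. The lowest WT value was that of culture 4, and the next was 8.69, above the lowest SOX2 KO value. Its difference was also -0.27 ± 0.29 (-0.87 to 0.34). It was -0.53 ± 0.23 without culture 4, between -0.35 and -0.14 when any other culture was left out, and -0.06 ± 0.17 with the array cluster as a covariate. On the means of all 13 cultures, Boc, Ptch1 and Hhip did not pass (limma adjusted p = 1.00 for each). In every alternative fit on culture means, the limma adjusted p of Hhip was 0.591 or above.

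Smo, the transducer that PTCH1 holds in check, ran from 7.37 through 8.00 to 8.53 in SOX2 KO vehicle arrays, against 7.62, 8.175 and 8.62 in WT vehicle arrays, and these ranges overlapped almost wholly. Its difference on culture means was -0.08 ± 0.27 (-0.65 to 0.48). Sufu, the cytoplasmic inhibitor of GLI factors, ran from 9.13 through 9.61 to 10.16 in SOX2 KO vehicle arrays, against 9.34, 9.755 and 10.27 in WT vehicle arrays. Its difference was -0.05 ± 0.20 (-0.46 to 0.37). Both had an adjusted p of 1.00 by limma.

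Of the GLI factors, Gli1, an activator whose transcription reads out the pathway, ran from 5.01 through 5.14 to 5.62 in SOX2 KO vehicle arrays, against 4.94, 5.215 and 5.48 in WT vehicle arrays. Its difference on culture means was -0.07 ± 0.17 (-0.43 to 0.28). Gli3, which acts mainly as a repressor when the pathway is off, ran from 9.51 through 10.27 to 10.94 in SOX2 KO vehicle arrays, against 9.70, 10.50 and 11.29 in WT vehicle arrays. Its difference was -0.19 ± 0.26 (-0.73 to 0.35). As with the other members, the genotypes overlapped and the adjusted p of both was 1.00 by limma.

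Gli2, the main activator downstream of SMO, stood lower in SOX2 KO. In vehicle its 7 SOX2 KO arrays had a lowest, median and highest level of 5.66, 6.34 and 6.76 log2 units, against 7.285 as the median of the 6 WT arrays, which ran from 6.06 to 8.77. With Dex the SOX2 KO arrays had 5.61, 6.45 and 7.40, against 6.29, 7.91 and 8.11 in WT arrays. In vehicle, 5 of 6 WT arrays were at 7.11 or above, beyond every SOX2 KO array, and culture 6 lay among the SOX2 KO arrays. With Dex, WT culture 5 at 7.38 also lay just under SOX2 KO culture 10 at 7.40. The difference was -1.10 ± 0.34 in vehicle (95% interval -1.80 to -0.41, limma adjusted p = 0.212) and -1.12 ± 0.34 in Dex (-1.81 to -0.42, limma adjusted p = 0.188). On culture means Gli2 was 6.37 ± 0.51 in SOX2 KO (SD, n = 7) and 7.48 ± 0.75 in WT (SD, n = 6), a difference of -1.11 ± 0.31 (limma adjusted p = 0.151). This is a ratio of 0.463 with an interval of 0.296 to 0.726. By p-value Gli2 ranked 273 of all genes in vehicle, 282 in Dex and 274 on culture means. It did not pass, and no claim of a change rests on it.

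The Gli2 call depended on WT culture 6 and on the array clusters. Without culture 6 the difference on culture means was -1.37 ± 0.26 and passed (limma adjusted p = 0.0141), as it did in vehicle (0.0176) and in Dex (0.0136), in fits in which 0.933%, 0.733% and 0.82% of all genes passed. Without culture 4, the highest in WT, it was -0.92 on culture means and -0.82 in vehicle (limma adjusted p = 0.540), and passed in neither. Over the 13 fits that left out 1 culture, the adjusted p on culture means reached 0.372. With the array cluster as a covariate it was -1.03 ± 0.25 on culture means and passed (limma adjusted p = 0.0354), in a fit in which 2.82% of all genes passed. The clusters were formed from the same values, so this pass is no separate support. With this covariate the adjusted p was 0.0636 in vehicle, where 1.93% of genes passed, and 0.0573 in Dex, where 2.04% passed. Within the clusters the difference on culture means was -0.89 in the first, -2.13 in the second, where culture 4 is the only WT culture, and -0.57 in the third. Gli2, Gli1 and Smo had 1 sign in all 3 clusters, as did 36.8% of all genes. With a random block for culture, the adjusted p was 0.102 in vehicle and 0.0904 in Dex, where 0.697% and 0.723% of genes passed. When culture 4 was also left out, it was 0.337 in vehicle and 0.117 in Dex, where 0.641% and 0.677% passed. SOX2 KO and WT overlapped for all 9 members in vehicle, in Dex and on culture means, against 0.518% of genes without overlap in vehicle, 0.482% in Dex and 0.554% on culture means.

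**Figure D2:**
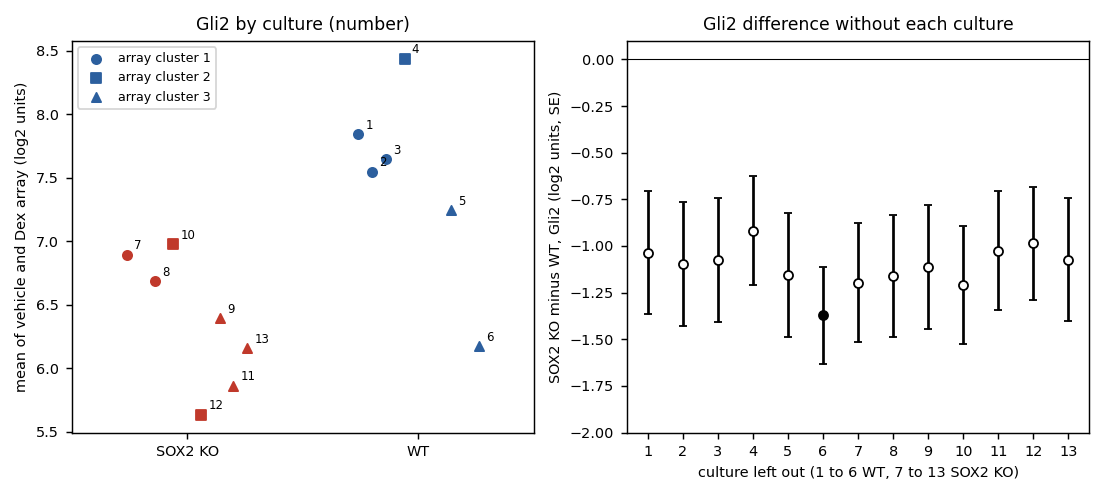
Gli2 by culture. Left, the mean of the vehicle and Dex array of each culture in log2 units, SOX2 KO in red and WT in blue, with the culture number beside each point and the array cluster as its shape; WT culture 6 at 6.175 lies within the SOX2 KO range of 5.635 to 6.98. Right, the SOX2 KO minus WT difference ± SE after leaving out the culture on the x axis, filled where the adjusted p was under 0.05, which was the case without culture 6.

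The median of the 9 members was below that of all genes, by an amount that depended on the array clusters and on the cultures in the fit. Their median difference in vehicle was -0.29, against -0.03 over all genes, with 2 members above 0 and 7 below. In Dex it was -0.17, against -0.06, with 1 above and 8 below. On culture means it was -0.19, against -0.04, with 1 above and 8 below. With the array cluster as a covariate the median was -0.09 in vehicle (0.01 over all genes), -0.03 in Dex (-0.01) and -0.07 on culture means (-0.00054). Without culture 3 it was -0.13 in vehicle (0.02 over all genes), -0.09 in Dex (-0.02) and -0.05 on culture means (0.003). Culture 3 was not alone in this. The median was -0.16 in vehicle without culture 1 (-0.01 over all genes) and -0.12 in Dex without culture 2 (-0.05). On culture means it was -0.09 without culture 11 (-0.03). Quantile normalization gave -0.20 in vehicle, -0.09 in Dex and -0.07 on culture means. In Dex, 4 members lay above 0 and 5 below without culture 3, and likewise with quantile normalization. Gli2 aside, the differences of the other 8 members ran from -0.32 for Shh to 0.14 for Boc in vehicle and from -0.25 for Ptch1 to 0.02 for Sufu in Dex. On culture means, the differences of these 8 ran from -0.27 to 0.05, and their 95% intervals together reached from -0.87 to 0.52, so differences within that span were not detectable for some of them with this number of arrays.

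**Figure D3:**
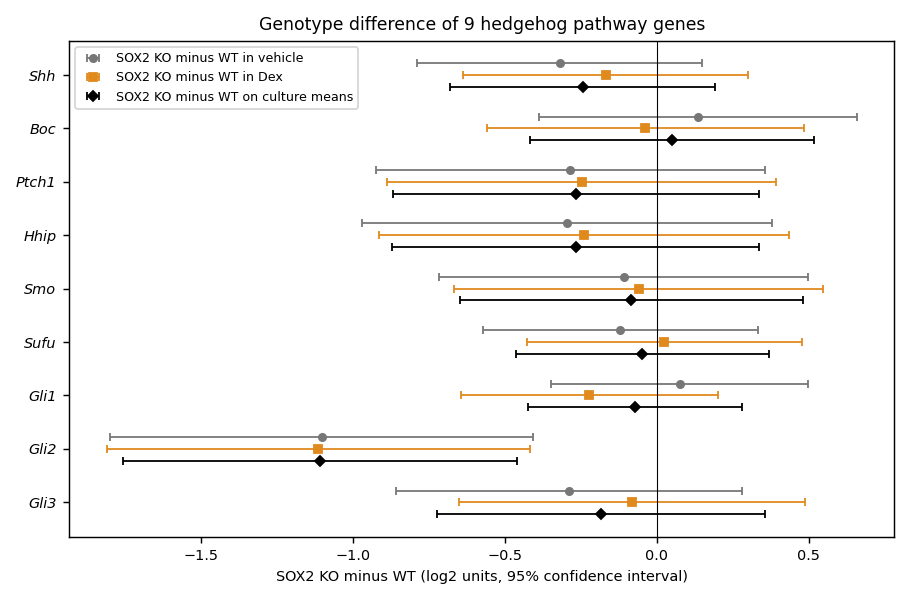
SOX2 KO minus WT difference of each hedgehog gene in log2 units on the x axis, with its 95% interval, in vehicle (grey circles), in Dex (orange squares) and on culture means (black diamonds). Gli2, at -1.10, -1.12 and -1.11, is the member whose interval leaves out 0, although its adjusted p was above 0.05 in each comparison.

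Other genes of the pathway were taken from lists of its parts. Beside the counts of these lists, 0.559% of all genes passed between genotypes in vehicle, 0.564% in Dex and 0.733% on culture means. Of 10 genes for ligands and their release, 0 rose and 0 fell in the 3 genotype comparisons. The 4 of smallest p on culture means beside Shh were Scube1 (-0.37 ± 0.19), Disp3 (-0.37 ± 0.21), Hhat (-0.32 ± 0.24) and Scube2 (0.17 ± 0.22). Of 9 measured genes for reception at the membrane, 0 passed as well. Lrp2, an endocytic receptor that takes up SHH in the forebrain, had a difference of -0.83 ± 0.22 (limma adjusted p = 0.119). Cdon, a co-receptor related to Boc, had the opposite sign, 0.84 ± 0.24 (limma adjusted p = 0.174). Its culture means ran from 10.80 through 11.44 to 11.795 in SOX2 KO, against 9.69, 10.69 and 11.075 in WT, and overlapped. With the array cluster as a covariate Cdon passed (0.92 ± 0.18, limma adjusted p = 0.00956).

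Of 17 measured genes of ciliary and cytoplasmic transduction, 1 fell on culture means, where 0.733% of all genes passed, and 0 rose. None passed in vehicle or in Dex alone. Arrb1, a beta-arrestin that carries SMO to the cilium, had culture means from 7.49 through 7.795 to 8.00 in SOX2 KO, against 8.12, 8.62 and 8.745 in WT. These did not overlap, as was the case for 0.554% of all genes. Its difference was -0.72 ± 0.16 (limma adjusted p = 0.0462). The call was kept in 2 of 13 fits that left out a culture, where the adjusted p ran from 0.022 to 0.142, with the value between -0.80 and -0.67. Evc2 (-0.59 ± 0.24), Iqce (-0.41 ± 0.19) and Kif3b (-0.46 ± 0.25), a motor subunit of ciliary transport, followed without passing. Of the 17 genes, 16 lay below 0 on culture means, with a median of -0.26 against -0.04 over all genes, and 15 lay below 0 in vehicle and 15 in Dex. With the array cluster as a covariate 12 of 17 lay below 0 on culture means, and the median was -0.19.

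Of 16 genes for GLI factors and their processing, 1 rose and 0 fell in each genotype comparison. Over all genes, 0.559% passed in vehicle, 0.564% in Dex and 0.733% on culture means. Prkacb encodes a catalytic subunit of protein kinase A, the kinase that marks GLI2 and GLI3 for processing. Its culture means ran from 14.005 through 14.53 to 14.87 in SOX2 KO, against 12.295, 13.135 and 14.21 in WT. The ranges overlapped, since the highest WT culture lay above the lowest SOX2 KO culture. The difference was 1.29 ± 0.30 in vehicle (limma adjusted p = 0.0376), 1.27 ± 0.30 in Dex (0.0415) and 1.28 ± 0.27 on culture means (0.0367), a ratio of 2.43. Leaving out 1 culture kept the call on culture means in 3 of 13 fits, with an adjusted p from 0.0095 to 0.101 and the value between 1.10 and 1.48. With the array cluster as a covariate the Prkacb difference was 1.46 ± 0.19 (limma adjusted p = 0.000304). Prkaca, which encodes the other main catalytic subunit, had a difference of -0.21 ± 0.17 (limma adjusted p = 1.00).

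Of 22 measured hedgehog target genes, 0 rose and 0 fell in each genotype comparison, and 6 lay above 0 and 16 below on culture means, with a median of -0.15. Bcl2, an inhibitor of cell death, had a difference of -1.13 ± 0.31 (limma adjusted p = 0.142), and it passed with the array cluster as a covariate (-1.06 ± 0.19, limma adjusted p = 0.0040). Rab34 (-0.42 ± 0.18), the cyclin gene Ccnd2 (-0.45 ± 0.19) and Hey2 (-0.39 ± 0.17) did not pass. Of 13 measured ventral telencephalic patterning genes, 0 passed. Dlx1 had -0.68 ± 0.22 (limma adjusted p = 0.274) and Dlx2 -0.55 ± 0.45. Of 12 dorsal patterning genes, 1 rose in each genotype comparison, Lef1, a transcription factor of Wnt signalling. Its difference was 1.71 ± 0.29 on culture means (limma adjusted p = 0.00623). The genotypes did not overlap there, as was the case for 0.554% of all genes. Leaving out 1 culture kept the Lef1 call in 13 of 13 fits on culture means and in Dex. In vehicle it was kept in 7 of 13, with an adjusted p of up to 0.096. The Lef1 culture means in WT ran from 3.70 through 4.16 to 4.615, below the lowest array median of 6.44, and whether they were above background was not tested. Emx2 was next at -0.53 ± 0.23 (limma adjusted p = 0.674).

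The Dex comparison asked whether glucocorticoid moved the pathway within 4 h. None of the 9 members passed in SOX2 KO, and none passed in WT. In WT, with culture 4 kept and no block for culture, 0 of 19505 genes passed. Fkbp5 (0.955) and Per1, the genes that checked the treatment labels, did not pass there either. That fit therefore cannot tell whether Dex left the members unmoved in WT. In SOX2 KO, 10 genes passed in the same fit, Fkbp5 among them (limma adjusted p = 0.00229), but not Per1 (0.0967). Among the members, Boc had the most uniform direction, lower in 6 of 7 SOX2 KO cultures and in 6 of 6 WT cultures. Its level with Dex in SOX2 KO had a lowest, median and highest value of 6.85, 8.01 and 8.46 log2 units, against 7.83, 8.24 and 9.43 with vehicle in SOX2 KO. With Dex in WT these were 7.29, 7.995 and 8.42, against 7.79, 8.37 and 8.67 with vehicle in WT. The ranges overlapped in both genotypes. Within cultures, the Dex minus vehicle difference of Boc ran from -1.38 to 0.22 in SOX2 KO and from -0.59 to -0.15 in WT. Its mean was -0.49 ± 0.56 in SOX2 KO (SD, n = 7) and -0.31 ± 0.19 in WT (SD, n = 6). In the fit without a block for culture, the SE was 0.25 in SOX2 KO (95% interval -0.99 to 0.02, limma adjusted p = 0.999). There it was 0.27 in WT (-0.86 to 0.23, limma adjusted p = 1.00). That fit does not use the pairing of the arrays. The SEs and adjusted p of Dex effects below are from it unless a block is named. With a block for culture, Boc did not pass in either genotype. Over all alternative fits its limma adjusted p was at lowest 0.365 in SOX2 KO and 0.568 in WT. Within the 3 array clusters the Boc difference was -0.80, -0.58 and -0.22 in SOX2 KO and -0.36, -0.16 and -0.33 in WT. Boc was the member with 1 sign in all 6 WT cultures, as 4.17% of all genes had, and no member had 1 sign in all 7 SOX2 KO cultures, against 2.5% of genes. Smo was lower in 5 of 7 SOX2 KO and 5 of 6 WT cultures, with differences of -0.27 ± 0.29 in SOX2 KO and -0.32 ± 0.31 in WT. The SD of its differences within cultures was 0.35 in SOX2 KO and 0.34 in WT.

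Gli2 went the other way. It was higher with Dex in 6 of 7 SOX2 KO cultures, where the difference ran from -0.05 to 0.84, and in 5 of 6 WT cultures. In the 5 WT cultures other than number 4 it was higher by 0.23 to 0.68, with a mean of 0.44 ± 0.19 (SD), and in culture 4 the array labelled Dex minus the array labelled vehicle gave -0.66. Boc and Gli2 had 1 sign in these 5 cultures, as did 9.99% of genes. Without a block, the Dex effect of Gli2 was 0.24 ± 0.33 in SOX2 KO (limma adjusted p = 0.999) and 0.25 ± 0.35 in WT (limma adjusted p = 1.00). The spread of its differences within cultures was an SD of 0.28 in SOX2 KO and 0.48 in WT. Over all alternative fits, those with a block among them, its limma adjusted p was at lowest 0.529 in SOX2 KO and 0.357 in WT. Gli1 was higher in 3 of 7 SOX2 KO and 5 of 6 WT cultures, with differences of 0.12 ± 0.20 in SOX2 KO and 0.42 ± 0.22 in WT. The SD of its differences within cultures was 0.47 in SOX2 KO and 0.47 in WT. Its WT arrays had 5.04, 5.61 and 6.15 with Dex, against 4.94, 5.215 and 5.48 with vehicle, and the mean difference was 0.34 without culture 4. Shh, Ptch1, Hhip, Sufu and Gli3 had Dex effects between -0.10 and 0.13 in SOX2 KO and between -0.17 and -0.02 in WT. Without culture 4 and with a block for culture, the WT effect was 0.44 ± 0.15 for Gli2 (limma adjusted p = 0.799), -0.34 ± 0.20 for Boc, -0.34 ± 0.17 for Smo and 0.34 ± 0.20 for Gli1, and it lay between -0.18 and -0.02 for the other 5. No member passed in that fit, in which 0.169% of all genes did.

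**Figure D4:**
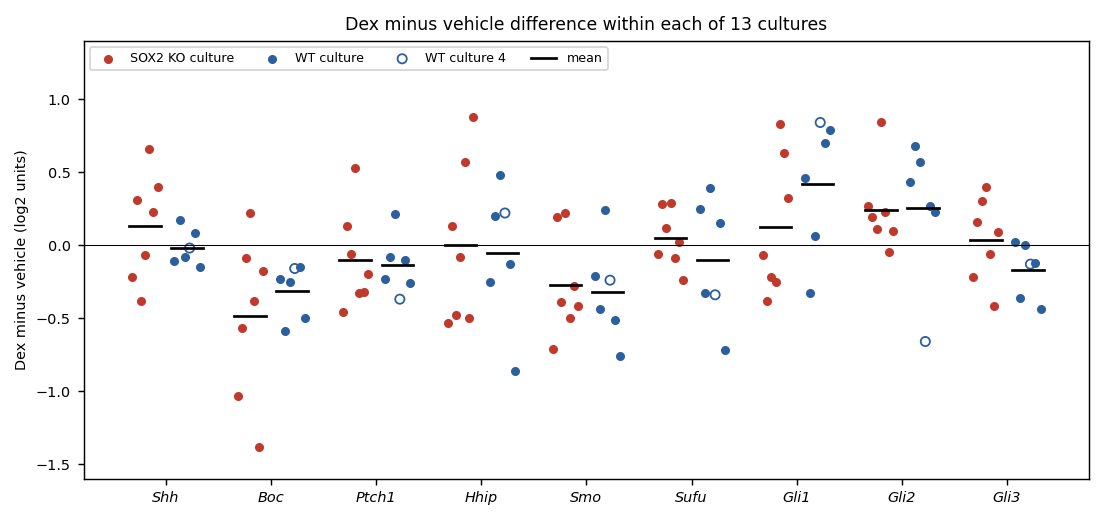
Dex minus vehicle difference within each culture in log2 units on the y axis for the 9 hedgehog genes, SOX2 KO cultures in red (n = 7) left of WT cultures in blue (n = 6), with the mean as a bar and WT culture 4 as an open circle. Boc lies below 0 in 12 of 13 cultures, and 1.3% of all genes have 1 sign in at least 12. Gli2 lies above 0 in 11 of 13.

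A block for culture alone gave an SE of 0.16 for the Dex effect of Boc in SOX2 KO, against 0.25 without it. The effect averaged over both genotypes, with that block, was estimated from all 13 cultures and added no call among the members. It was -0.40 ± 0.12 for Boc (limma adjusted p = 0.283), -0.30 ± 0.10 for Smo (0.406), 0.25 ± 0.11 for Gli2 (0.516) and 0.27 ± 0.13 for Gli1 (0.537). In this fit 0.144% of all genes passed. Without culture 4 the values were -0.42 ± 0.13 for Boc (limma adjusted p = 0.246), 0.34 ± 0.10 for Gli2 (0.194), -0.30 ± 0.11 for Smo (0.389) and 0.23 ± 0.13 for Gli1 (0.612), with 0.497% of genes passing. At least 11 of the 12 cultures other than number 4 shared 1 sign for Boc and Gli2, as they did for 2.59% of all genes.

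The Dex effect did not differ detectably between the genotypes for any member. The difference, SOX2 KO minus WT, ran from -0.30 ± 0.29 for Gli1 to 0.21 ± 0.39 for Gli3, and it was -0.01 ± 0.48 for Gli2 (95% interval -0.997 to 0.974). These values are from the fit without a block, which does not use the pairing of the arrays. In it the intervals of the 9 members together reached from -0.997 to 1.01. Differences in response within that span were not detectable in that fit for some of them. With a block and without culture 4, as given below for Gli2, Gli1 and Gli3, the SE was smaller. The adjusted p was 1.00 by limma for all 9. Without culture 4 and with a block for culture, the difference was -0.19 ± 0.19 for Gli2, -0.21 ± 0.27 for Gli1 and 0.22 ± 0.20 for Gli3, again with an adjusted p of 1.00 by limma.

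None of the genes on the pathway lists passed for Dex in either genotype when all 26 arrays were fitted without a block. In WT 0 of all genes passed in that fit, so it cannot tell whether Dex left the listed genes unmoved there. Mycn, a target gene in neural progenitors, had the smallest p among the targets in WT. Its level with Dex in WT had a lowest, median and highest value of 3.23, 3.715 and 4.74 log2 units, against 4.08, 4.56 and 5.77 with vehicle in WT. These values lay below the lowest array median of 6.44, and no background values were used to tell whether Mycn was above background. The difference was -0.86 ± 0.24 (limma adjusted p = 1.00) over 6 WT cultures, and after culture 4 was removed and culture entered as a block it was -0.92 ± 0.16 and passed (limma adjusted p = 0.0150), in the same fit as above. In SOX2 KO the Mycn difference was -0.34 ± 0.22 (limma adjusted p = 0.999). The difference between these effects, 0.52 ± 0.33, did not pass either (limma adjusted p = 1.00). Scube3, which helps release SHH, had -0.51 ± 0.20 in SOX2 KO, and Disp1, which exports SHH, had -0.44 ± 0.29 in SOX2 KO and -0.45 ± 0.31 in WT, none of them passing.

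Genes of most alike pattern were sought by the mean absolute difference of standardised levels over the 26 arrays, on which smaller is more alike. For Shh these were Bmp8a (0.454), En1 (0.489) and Vmn1r43 (0.49), against a median of 1.10 over all genes. For Ptch1 they were Ppp2r2b (0.311), Nalcn (0.366) and Srpk2 (0.396), against 1.06. For Hhip they were Trmt6 (0.374), Coa6 (0.379) and Tmem222 (0.382), against 1.00. For Gli1 they were Platr26 (0.482), Mgp (0.518) and Gimd1 (0.524), against 1.09. For Gli2, added after its values were seen, they were Ttyh3 (0.348), Slc1a2 (0.35) and Sptan1 (0.355), against 1.03. The arrays share cultures and array clusters, so likeness over them is a description, and no member was among the 3 genes most alike to any of these members.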

How the data were processed

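RNA of 13 mouse cultures was measured on 26 single-colour arrays with biotin-labelled cRNA, per the labels. The deposited values were taken as log2 levels, since neither the log base, the authors' normalization nor a genome build is given in the sources used here. They ran from 2.22 to 19.81, with array medians from 6.44 to 6.84 and upper quartiles from 9.38 to 10.43. Of 22206 transcript clusters, 19572 carried 1 symbol and 2634 none; for 55 genes with several, the one of highest mean was kept, which left 19505 genes. No background values were used, and the number of arrays limits the precision.

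With limma 3.58.1 in R 4.3.3, 1 mean per group was fitted to all 26 arrays and 5 contrasts were taken, and genotype was also fitted to 13 culture means. P-values were adjusted by Benjamini-Hochberg over all genes, two-sided, at 0.05. Errors are moderated SE for differences and SD for levels. Each culture came from its own animal, per the labels. The vehicle and Dex arrays that share a number were taken as a pair, since the labels give them the same biological sample number. After group means were removed, these 13 pairs had correlations of 0.31 to 0.73. No value for arrays of unlike number is given, so these correlations alone do not show the pairing. The block's value is printed where it bears on a call. The scripts were tested on simulated data.

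The 9 members, and per list up to 4 further genes of smallest p, were named, with Sox2, Fkbp5 and Per1 as checks. For Shh, Ptch1, Hhip and Gli1 the 3 most alike genes were named. Members and lists were chosen with earlier results of these data known. Alternatives were a filter on low mean, median centring, quantile normalization, other priors, other arrays in the fit, the array cluster, the block, and leaving out cultures. The fits without cultures 4 and 12 and the Dex effect averaged over genotypes were added after seeing the data. RefSeq promoters (GRCm38.p6) were searched for the motif letters named.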

Additional observations from a re-analysis of the deposited data

Results flagged for a closer look

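Among 54 sets of 6 or 7 values tested for a single value far from the others, 3 stood out. Chance gives about 1 in 20, so the number that stood out is near the chance share. Hhip in the SOX2 KO Dex arrays was at 7.56 in culture 12, against 8.49 as the next lowest. The Gli2 Dex minus vehicle difference was 0.84 in SOX2 KO culture 10, against 0.27 as the next highest in SOX2 KO. The Gli2 Dex minus vehicle difference was -0.66 in WT culture 4, against 0.23 as the next lowest in WT. In that culture Fkbp5 and Per1 also went against the treatment labels.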

How the results depend on the processing

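No member passed under any alternative in the Dex comparisons or in the difference of Dex effects, and Gli2 alone passed in the genotype comparisons. Leaving out 1 culture gave 0 to 1 passing members in each of the 3 genotype comparisons, and the array cluster as a covariate gave 1 on culture means. With the replicate block Gli2 stayed above the threshold (adjusted p 0.102 in vehicle), and the block changed no other member's call. Over all genes, the array cluster raised the number passing to 376 in vehicle, 397 in Dex and 550 on culture means, against 109, 110 and 143 without it. The block without culture 4 raised it to 49 for Dex in SOX2 KO and 33 for Dex in WT, against 10 and 0. The number of arrays and the unknown background limit what can be said of dim genes such as Gli1, Shh and Mycn, and of Lef1 in WT.

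Signs of differences near 0 turned. For SOX2 KO against WT in Dex, Boc was 0.035 with quantile normalization, 0.042 with median centring, 0.062 with the array cluster, 0.034 with the block and culture 4 left out, and 0.21 with cultures 4 and 12 left out. There Smo was 0.10 with quantile normalization, 0.020 with median centring and 0.059 with the block without culture 4, Gli3 was 0.059 with quantile normalization and 0.034 with the cluster, and Sufu was -0.0091 with the block without culture 4. For Dex in SOX2 KO, Hhip was 0.076 with quantile normalization, 0.019 with median centring and 0.082 without cultures 4 and 12. In the difference of Dex effects Gli2 was 0.032 with median centring, Ptch1 -0.0094 with the block without culture 4, and Boc 0.0057 without cultures 4 and 12. On culture means Smo was 0.038 with quantile normalization, and Sufu 0.066 with quantile normalization, 0.0098 with median centring and 0.063 with the cluster. The causes were not tested.

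Leaving out 1 culture gave, for SOX2 KO against WT in Dex, -0.17 to 0.14 for Boc, -0.23 to 0.11 for Gli3, -0.25 to 0.087 for Smo, -0.15 to 0.16 for Sufu and -0.29 to 0.0089 for Mycn, in vehicle -0.035 to 0.23 for Boc, and on culture means -0.077 to 0.15 for Boc, -0.23 to 0.033 for Smo and -0.16 to 0.041 for Sufu. For Dex in SOX2 KO it gave -0.15 to 0.087 for Hhip and -0.025 to 0.11 for Gli3, and in WT -0.056 to 0.008 for Shh, -0.16 to 0.10 for Hhip and -0.20 to 0.024 for Sufu. For the difference of Dex effects it gave -0.19 to 0.073 for Gli2, -0.068 to 0.11 for Ptch1, -0.11 to 0.16 for Hhip and -0.038 to 0.16 for Smo.

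List counts moved by 1. With the filter on low mean, which leaves out Lef1, the dorsal list had 0 in each genotype comparison. With 2 groups only, the GLI processing list had 0 in vehicle and 0 in Dex, and the dorsal list 0 in Dex. With the cluster, the ciliary list had 1 in vehicle, the target list 1 in Dex and 1 on culture means, and on culture means the reception list 1 and GLI processing 2. The reception list also had 1 with quantile normalization, and the ciliary list 0 with a trended prior. With the block and culture 4, or cultures 4 and 12, left out, GLI processing had 0 in Dex, and the ventral list 1 in the second case. Leaving out 1 culture gave 0 to 1 for GLI processing in all 3 genotype comparisons, for the ciliary list on culture means, the dorsal list in vehicle and the ventral list in Dex.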
